A study of Drosophila melanogaster with 42 samples.

Results

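Of 260 transcripts that were at least 4-fold higher in the ring gland of Drosophila melanogaster than in the whole larva throughout the third instar, 62 had an average level within 1.41-fold of control, over 2 times before puparium formation, both when Torso was lowered and when Ras was activated in the gland. Steady here refers to that average alone, and 34 of the 62 met the same limit at both times in both genotypes. These 62 transcripts, 23.8% of the 260 and a small part of the 16637 in the table, are described here. They were chosen on group means of log2 intensity over 3 arrays. Ring gland minus whole larva had to be at least 2 at each of 4, 8, 24 and 36 h. The difference of torso-RNAi from control glands, averaged over 18 and 8 h before puparium formation and called T below, had to lie within 0.5 of 0. The same limit was set for RasV12 minus control, called R. A difference of 0.5 is a change of 1.41-fold.

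The ring gland is the composite endocrine organ of the fly larva. It joins the prothoracic gland, which makes ecdysone, with the corpora allata, which make juvenile hormone, and the corpora cardiaca, which release adipokinetic hormone. The neuropeptide PTTH reaches the prothoracic gland and acts through the receptor tyrosine kinase Torso and the Ras and MAP kinase cascade, which raises ecdysone output ahead of the moult to the pupa. Lowering Torso in the gland is known to delay pupariation and activating Ras to advance it.

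Total RNA, labelled with Cy3, was hybridised to one-colour NimbleGen arrays, 3 to each of 14 groups, which the labels call biological replicates. All larvae were raised on yeast paste in darkness. In the wild-type part, 24 arrays held w1118 ring glands and w1118 whole larvae at 4, 8, 24 and 36 h of the third instar. In the driver-cross part, 18 arrays held ring glands at 18 and 8 h before puparium formation from 3 genotypes, all carrying phantom-Gal4, which drives expression in the prothoracic gland. These were the cross to w1118 (control), the cross to RasV12, a constitutively active Ras, and the cross to torso-RNAi, with an accelerated and a delayed development, respectively, in the labels. For the 9 arrays at 8 h, the titles name 18 h and the source descriptions 8 h. The titles still set the times apart, with a blue gut for the 18 h arrays and a partial clear gut for the 8 h arrays. The hours of the source description were followed here, so every value at 8 h depends on that description. All 3 genotypes contain glands with cells outside the prothoracic gland, and fewer cells of a type cannot be told apart from less RNA per cell.

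The values are RMA intensities, and 0 of the 62 transcripts could be paired with a gene through the reference table, so each is given by its FlyBase transcript identifier. For the same reason the level of torso or Ras and the defining markers of the gland's cells could not be read. Array medians lay between 276.1 and 393.6. Some whole-larva arrays stood apart. Replicate 1 at 24 h and replicate 1 at 36 h had the weakest correlation with the same-age arrays, 0.9742 to 0.9786 over transcripts (no independent replicates), and replicates 2 and 3 at 36 h were nearly alike (r = 0.999, SD of the log2 difference 0.132, against 0.282 to 0.76 in the other replicate pairs). Counts on whole larvae are therefore also given without the former and with the latter averaged. Of all groups, the torso-RNAi arrays at 8 h had the largest SD of the log2 difference, 0.721 to 0.76 (r = 0.9806 to 0.9828 over transcripts).

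The gland and larva values that follow are those that chose the transcripts, so they are a description without a test. Ring gland minus whole larva had medians of 2.6, 2.85, 2.71 and 2.81 on the log2 scale, in order of age, and ranged from 2.01 to 6.64. Over the mean of the 4 times, 13 of the 62 transcripts were at least 16-fold higher in ring gland. The other 198 gland-enriched transcripts had a higher median at each time, 3.09, 3.28, 3.1 and 3.48. The transcripts nearest the limit from inside were FBtr0113447, with a lowest difference of 2.007, and FBtr0077632, at 2.025. Just outside were FBtr0071579, at 1.982, and FBtr0080235, at 1.979.

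The highest mean difference belonged to FBtr0087744, at 6.08. Its ring gland intensities were 12280, 14030 and 14100 at 4 h, 13050, 14100 and 13220 at 8 h, 14940, 13990 and 15280 at 24 h. The arrays at 36 h read 16960, 16160 and 15720. In whole larva it read 145.1, 132.6 and 179.9 at 4 h, 144.4, 180.9 and 168.5 at 8 h, 223.4, 191.4 and 271.8 at 24 h. The arrays at 36 h read 198.2, 499.9 and 507.8. The gland arrays thus lay far above the larval ones at every time, and in larva the 36 h arrays were split between a low replicate 1 and a higher pair. In the driver crosses its mean intensity was 19400 ± 1160 (SD, n = 3) in control, 27100 ± 233 in RasV12 and 23300 ± 750 in torso-RNAi glands at 18 h. At 8 h these were 19500 ± 382, 23900 ± 739 and 22900 ± 1050.

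T of the 62 transcripts ranged from -0.48 to 0.47 with a median of -0.08, and R had a median of 0.06. Over the other 198 the medians were -0.58 and -0.17, and the lowest values -9.05 and -7.2. Of these 198, 52 had T alone outside the limit, 64 had R alone and 82 had both. The plot of T against R shows the 62 as the centre of a cloud that extends mainly to lower values. Just inside the limit for T lay FBtr0114175, at -0.479, and FBtr0080073, at 0.466, and just outside FBtr0077916, at -0.512, and FBtr0089412, at -0.548. For R, FBtr0113218 at -0.497 and FBtr0082933 at 0.491 were just inside, and FBtr0111122 at 0.502 and FBtr0071368 at 0.514 just outside.

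**Figure D1:**
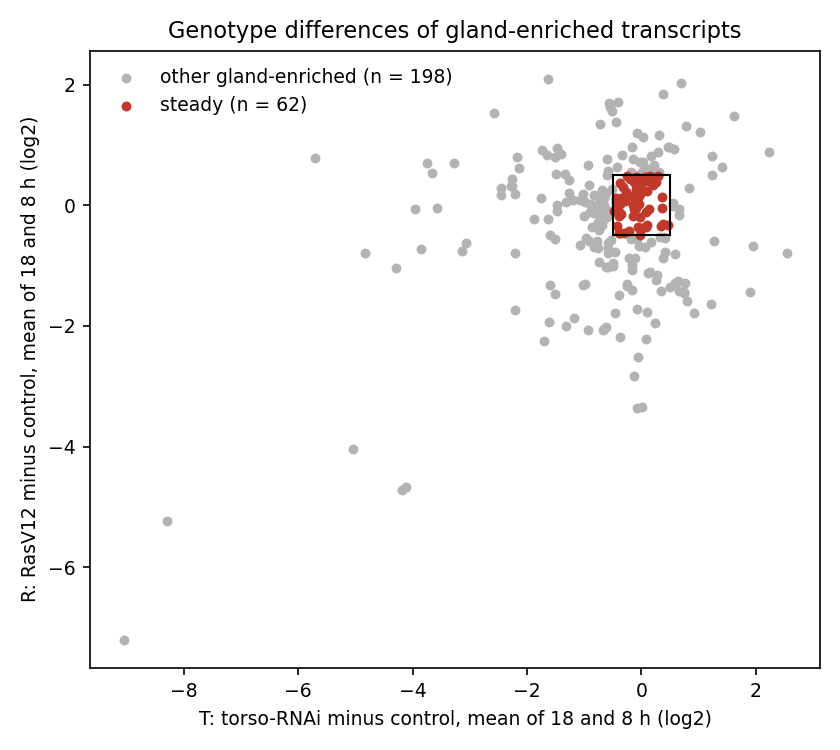
Torso-RNAi minus control (x axis) against RasV12 minus control (y axis), each the mean of 18 and 8 h on the log2 scale, for the 260 gland-enriched transcripts. The box marks the limits of 0.5; the 62 steady transcripts (red) fill it by construction, and the other 198 (grey) reach down to -9.05 and -7.2.

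Averaging hid differences at single times, more often for RasV12. Torso-RNAi minus control was smaller than 0.5 in size at both times for 51 of the 62 transcripts, and RasV12 minus control for 42. At 18 h the RasV12 difference reached 0.5 in size in 16 transcripts and ranged from -1.03 to 1.08, and at 8 h in 5. Over all 16637 transcripts it did so in 7034 at 18 h and in 6460 at 8 h. The rule itself keeps these counts low in the 62, so they are a description. The mean over the times chose the transcripts. In the noise of the arrays the change between the times is orthogonal to that mean, but changes of a genotype difference are not free of the rule. A genotype effect at a single time, with none at the other, could pass only below 1 in size. Larger effects could pass where those at the other time were opposite and offset them. The change was tested with limma across all 16637 transcripts and Benjamini-Hochberg adjustment, at an adjusted p under 0.05 (2-sided).

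In control glands the share of the 62 transcripts that changed between 18 and 8 h was near that of all transcripts, 11.3% against 13.8%. Higher at 8 h were 2 of 62 (3.23%) and lower were 5 (8.06%), against a background of 7.6% and 6.25%. That background includes dim transcripts (mean log2 under 6), and the 62 held none. With dim transcripts left out it was 12.4% and 9.98%. The median size of the change was 0.09, against 0.2 over all transcripts and 0.36 over the other 198. The within-group SD had a median of 0.2 in the 62, 0.28 in the 198 and 0.24 overall.

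FBtr0085071 fell most in controls, from 7729, 7000 and 6959 at 18 h to 4022, 3433 and 4952 at 8 h, without overlap. Its log2 change was -0.82 ± 0.15 (SE, limma adjusted p = 0.0041). FBtr0084450 fell from 1714, 1469 and 1894 to 914.8, 1173 and 1111, a log2 change of -0.67 ± 0.17 (limma adjusted p = 0.017), and it was no longer called without replicate 1 at 8 h or without replicate 1 or 3 at 18 h. The others that fell, named after their values were seen, were FBtr0074087 (-0.38), FBtr0084479 (-0.37) and FBtr0290057 (-0.37). Those that rose were FBtr0076181, by 0.39 ± 0.12 (limma adjusted p = 0.039), and FBtr0079363, by 0.36 ± 0.09 (limma adjusted p = 0.021). FBtr0076181 read 463.9, 424.7 and 594.9 at 18 h and 624.2, 681.2 and 621 at 8 h. FBtr0079363 read 360.4, 301.6 and 308.3 and then 434.9, 425.4 and 384.4, and for both transcripts every array at 8 h lay above every array at 18 h. Both rises were lost when only the control arrays were fitted (adjusted p = 0.13 and 0.074). Without any 1 of the 6 control arrays, 0 or 1 transcripts were called higher, and without replicate 1 at 8 h or replicate 1 at 18 h only 2 were called lower.

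RasV12 glands changed more between the times. Of the 62 transcripts, 16 (25.8%) were higher and 15 (24.2%) lower at 8 h than at 18 h. Over all transcripts 16.1% and 17.2% were, so that 50% were called against 33.3%. With dim transcripts left out and the rest fitted again, the background was 24.1% higher and 26.2% lower. The shares of the 62 come from the fit over all transcripts, so the cuts differ. No excess over transcripts that are not dim is therefore read. Over the other 198, 14.1% were higher and 25.3% lower. Most changes were small, with a median size of 0.27 beside 0.29 over all transcripts, and 5 of the called ones were at least 2-fold. Without RasV12 replicate 2 at 8 h the higher calls were 9, beside 13.6% of all transcripts. Without replicate 1 at 18 h the lower calls were 9, beside 14.1%. Fitted on the RasV12 arrays alone, 7 were called lower, beside 12.9% of all transcripts. In these directions the members' calls were thus near the background. Both counts of 9 were the lowest with 1 array left out. Without replicate 2 at 8 h the lower calls were 13, beside 15.1% of all transcripts.

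The largest rise was that of FBtr0080734. In RasV12 glands it read 3787, 3919 and 1368 at 18 h and 13500, 14430 and 11230 at 8 h. Control glands read 3592, 5234 and 7108 at 18 h and 6072, 4348 and 4759 at 8 h. The RasV12 arrays at 8 h thus stood above every control array, and replicate 3 at 18 h below every one, with replicates 1 and 2 inside the control range. The log2 change in RasV12 glands was 2.25 ± 0.34 (SE, limma adjusted p = 0.00023), or 1.75 without that replicate 3.

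FBtr0082648 followed, with 3992, 8596 and 3245 in RasV12 glands at 18 h and 15180, 14910 and 14840 at 8 h. Controls read 10280, 10120 and 9035, then 12370, 12750 and 10730. All RasV12 arrays lay below the controls at 18 h and above them at 8 h, though replicate 2 at 18 h came close to the controls. Its log2 change was 1.64 ± 0.25 (limma adjusted p = 0.00022).

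In the other direction, FBtr0085071 fell in RasV12 glands from 9727, 8013 and 8621 to 2010, 1944 and 2184. The log2 change was -2.1 ± 0.15 (limma adjusted p = 1.5e-06), and at 8 h all RasV12 arrays lay below all control arrays. FBtr0089584 fell from 1811, 1559 and 1775 to 657.7, 596.1 and 589.6 in RasV12 glands, a log2 change of -1.48 ± 0.14 (limma adjusted p = 7.3e-06). Control glands held it at 853.5, 628.7 and 988.1 and then at 793.8, 675 and 830.9. RasV12 arrays were thus higher than all controls at 18 h and lower than all controls at 8 h.

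**Figure D2:**
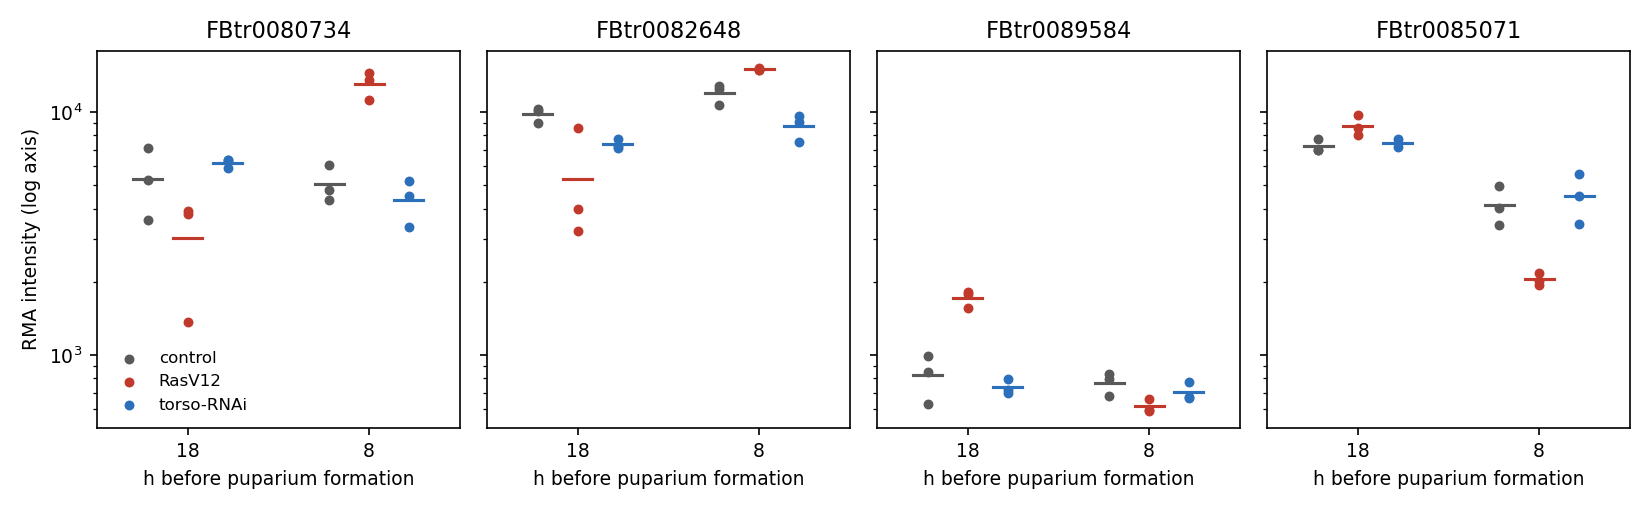
RMA intensity (log axis) of 4 steady transcripts in each driver-cross array, by hours before puparium formation; points are arrays, bars are group means, n = 3. The mean of FBtr0080734 went from 3020 to 13100 in RasV12 glands (red) and from 5310 to 5060 in controls (grey). All 4 have a change of difference over 1 in size, so the rule itself makes RasV12 and control cross.

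Whether the RasV12 difference from control itself changed between the times was tested as an interaction. It was called for 10 of the 62 transcripts, 5 with a more positive difference at 8 h (8.06%) and 5 with a more negative one (8.06%). Over all transcripts the shares were 2.79% and 4.69%, or 7.48% either way. With dim transcripts left out and the rest fitted again, they were 5.81% and 9.99%. The members' shares come from the fit over all transcripts, so these are not at the same cut and no excess is read. Of the other 198, 2.53% and 8.08% were called. Because the rule kept the mean of both times within 0.5 of 0, a change over 1 in size must take the difference across 0. This held for 5 of the 10, FBtr0080734, FBtr0082648, FBtr0089584, FBtr0085071 and FBtr0071578, whose crossing is therefore no observation. The test bears on the size of the change alone, and the rule also limited which changes could be among the 62.

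The change of the RasV12 difference was 2.28 ± 0.49 (SE, limma adjusted p = 0.014) for FBtr0080734, from -0.91 at 18 h to 1.37 at 8 h. It was 1.36 ± 0.35 (limma adjusted p = 0.033) for FBtr0082648, from -1.03 to 0.33. It was -1.4 ± 0.2 (limma adjusted p = 0.0015) for FBtr0089584, from 1.08 to -0.32, and -1.28 ± 0.22 (limma adjusted p = 0.0042) for FBtr0085071, from 0.28 to -1. FBtr0080734, FBtr0089584 and FBtr0085071 kept their calls when any 1 of the 12 arrays was left out, whereas FBtr0082648 lost its call in 10 of the 12 cases, at adjusted p up to 0.082 (0.079 in the compared groups alone), and kept it without RasV12 replicate 2 at 18 h or control replicate 3 at 18 h.

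The other 6 called transcripts are named after their values were seen. FBtr0080073 (0.74), FBtr0073248 (0.54) and FBtr0071130 (0.49) moved up relative to control, and FBtr0071578 (-1.04), FBtr0082933 (-0.73) and FBtr0079363 (-0.48) moved down. FBtr0071578 had means of 12600 ± 557 (SD, n = 3) in RasV12 and 7470 ± 275 in control glands at 18 h, and of 6890 ± 772 and 8360 ± 98.1 at 8 h. FBtr0073248, called more positive, remained below control at both times, at -0.72 and -0.19. When 1 of the 12 arrays was left out, 2 or 3 transcripts were called more positive, except without replicate 2 of RasV12 or replicate 3 of control at 18 h, which left 5. The more negative calls were 3 without RasV12 replicate 1 or 3 at either time, control replicate 1 or 3 at 8 h, or control replicate 2 at 18 h, and 4 or 5 otherwise. Fitted on the compared groups alone, 2 were called more positive, beside 2.55% of all transcripts.

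In torso-RNAi glands more of the 62 transcripts fell than rose between the times. Higher at 8 h were 4 of the 62 transcripts (6.45%) and lower 13 (21%), against 13% and 13.2% of all transcripts, or 26.2% either way. Of the other 198, 14.6% were higher and 27.8% lower. None of the 62 changed 2-fold or more, and the range was -0.75 to 0.87. Fitted on the torso-RNAi arrays alone, 5 were called lower, beside 7.41% of all transcripts. Without torso-RNAi replicate 3 at 8 h the count was 8, beside 10.4%. With dim transcripts left out, the background was 20.1% higher and 16.7% lower.

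FBtr0082516 rose most in torso-RNAi glands, from 1915, 1680 and 1987 at 18 h to 2927, 4080 and 3265 at 8 h, a log2 change of 0.87 ± 0.12 (limma adjusted p = 0.00017). At 18 h these arrays lay below the controls, which read 3132, 2859 and 2934. At 8 h they overlapped with controls at 3722, 3654 and 3152. FBtr0076181 rose by 0.55 ± 0.12 (limma adjusted p = 0.0033), from 434.3, 432.2 and 431.9 to 592.8, 709.1 and 607.1. Named after their values were seen, FBtr0088690 (0.4) and FBtr0087716 (0.24) also rose.

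FBtr0085071 fell in torso-RNAi glands too, from 7193, 7467 and 7710 to 5561, 3465 and 4511, by 0.75 on the log2 scale (SE 0.15, limma adjusted p = 0.0029). Its torso-RNAi arrays overlapped with controls at 8 h. FBtr0082933 went from 1776, 1494 and 1714 to 1229, 892.1 and 943.1, a log2 change of -0.71 ± 0.14 (limma adjusted p = 0.002). All its torso-RNAi arrays at 18 h were above the controls, at 1241, 1010 and 1296, and at 8 h the groups overlapped.

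The torso-RNAi difference from control changed between the times for 0 transcripts upward and 2 downward (3.23%). Over all transcripts the shares were 1.34% and 1.66%, or 3.01% either way, near the members' share in this fit. With dim transcripts left out (2.31% and 2.08% of all) the members' shares were above those of all transcripts in both directions. The same held with trend and robust moderation (1.53% and 1.77%). The members' counts in these settings are given in the last section. At an unadjusted p under 0.05, limma gave 5 upward and 6 downward. The share of all transcripts at that cut was not counted, so nothing is read from these numbers. Over the alternatives run, the called numbers lay between 0 and 3 upward and between 0 and 6 downward. The same control arrays serve in this comparison and in that of RasV12. FBtr0087681 read 8640, 8868 and 8911 in torso-RNAi glands at 18 h and 6779, 5606 and 4733 at 8 h. Controls read 9563, 9533 and 9272 and then 9962, 9571 and 9411, so the torso-RNAi arrays lay below the controls at both times and further below at 8 h. The change of the difference was -0.67 ± 0.16 (SE, limma adjusted p = 0.042).

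FBtr0078563 read 7169, 7452 and 7400 in torso-RNAi glands at 18 h, each above the controls at 7095, 6187 and 6777. At 8 h it read 6038, 4871 and 4858, each below the controls at 6687, 6896 and 6318. The change of the difference was -0.48 ± 0.12 (SE, limma adjusted p = 0.045). Both calls were lost, at adjusted p up to 0.11, when any 1 of the 12 arrays other than torso-RNAi replicate 1 at 8 h was left out. Fitted on the compared groups alone, FBtr0087681 and FBtr0078563 had limma adjusted p = 0.062 and 0.11, and with arrays centred the latter had 0.065.

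**Figure D3:**
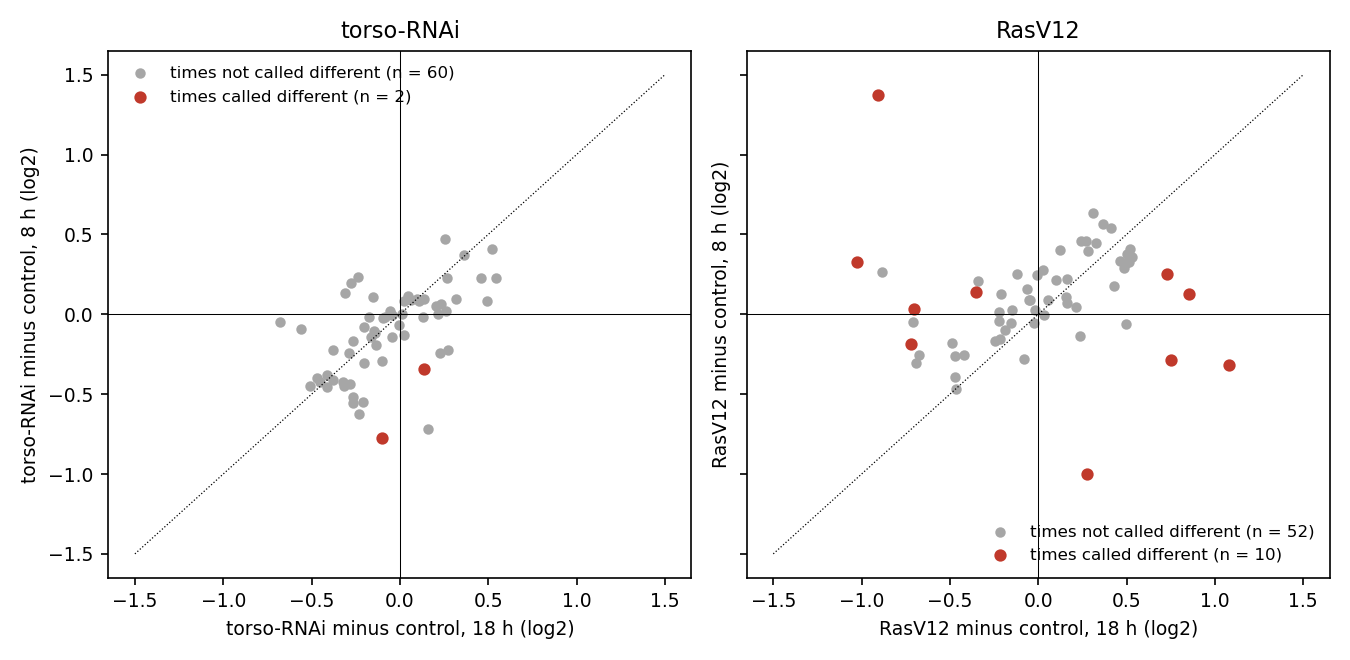
Difference from control at 18 h (x axis) against 8 h (y axis), log2, for torso-RNAi (left) and RasV12 (right); each point is 1 of the 62 transcripts and the dotted line marks equal values. Red points are those whose difference changed between the times at an adjusted p under 0.05, 2 on the left and 10 on the right.

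The changes with age in wild type use the arrays at 4 and 36 h on which the transcripts were chosen, and a transcript low in gland or high in larva at either time could not be among them. The counts of limma calls are therefore a description, from which nothing is read about the 62, and single transcripts are given without p. From 4 to 36 h in the gland, 18 (29%) were called higher and 2 (3.23%) lower, against 24.5% and 13.4% of all transcripts, or 38% either way. The other 198 gland-enriched transcripts had 35.4% higher and 18.7% lower. The median change was 0.26 in the 62, 0.28 in the 198 and 0.15 over all transcripts. After each array was shifted to have a median deviation of 0, the median of all moved to -0.01, that of the 62 to 0.1, and the calls became 9 higher and 4 lower, beside 14.9% higher and 18.7% lower over all transcripts. Without gland replicate 1 at 36 h or replicate 2 at 4 h, 10 were called higher, beside 17.2% and 20.3% of all transcripts.

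The 18 rises had a median log2 size of 0.65, and 5 of them were at least 2-fold. These were FBtr0082648 and FBtr0111170 and, named after their values were seen, FBtr0075769 (1.22), FBtr0075059 (1.17) and FBtr0082516 (1.14). FBtr0082648 rose from 1200, 1157 and 1222 at 4 h through 815.4, 1384 and 1103 at 8 h and 1939, 2171 and 1750 at 24 h to 3071, 2345 and 3621 at 36 h. The log2 change was 1.31 ± 0.21 (SE), and the arrays at 24 and 36 h lay above all earlier ones. FBtr0111170 rose from 188.5, 234.6 and 283 at 4 h to 680.2, 591.4 and 472.4 at 36 h, also by 1.31 ± 0.19. In whole larva it lay between 33.19 and 50.66 on all 12 arrays, and its change there was not called.

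The falls were those of FBtr0080734 and FBtr0084450. FBtr0080734 read 2956, 2734 and 2808 at 4 h, 2637, 2888 and 2922 at 8 h, 2653, 2112 and 2469 at 24 h. The arrays at 36 h read 1353, 1294 and 1400. It fell by 1.07 on the log2 scale (SE 0.11), most of it after 24 h. FBtr0084450 fell from 230, 242.7 and 227.2 to 105.4, 153.6 and 100.5, a log2 change of -0.99 ± 0.21.

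**Figure D4:**
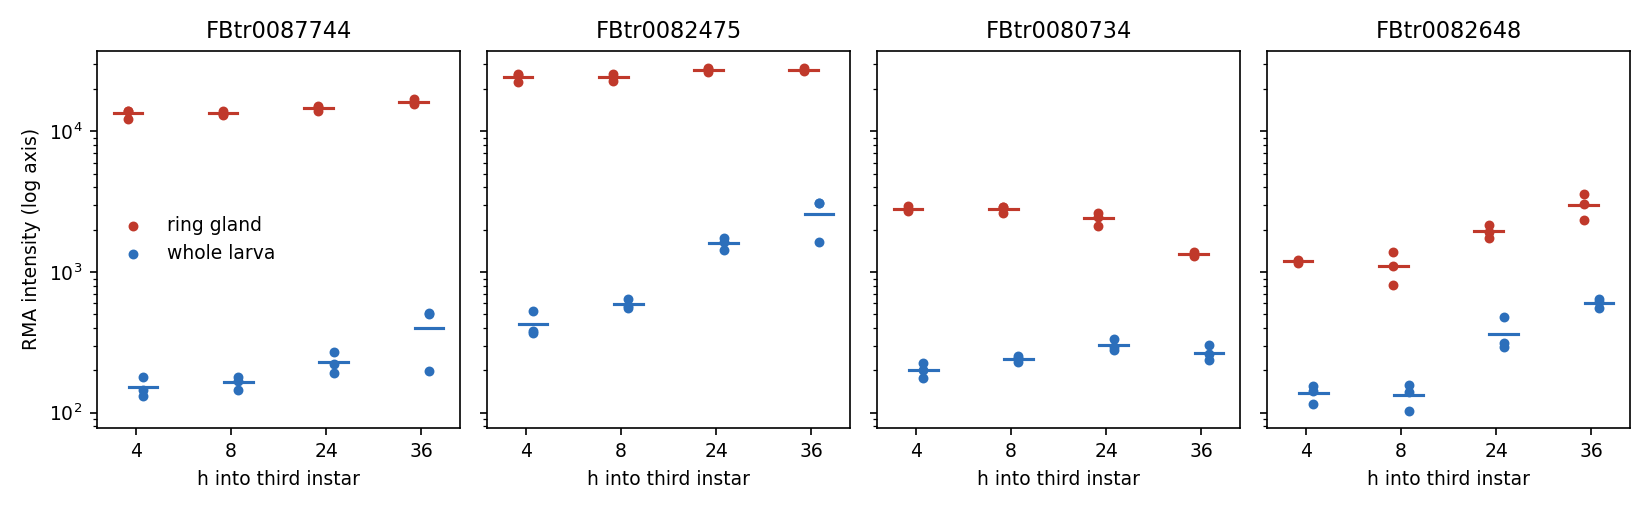
RMA intensity (log axis) of 4 steady transcripts in wild-type ring gland (red) and whole larva (blue) by hours into the third instar; points are arrays and bars group means, n = 3. The mean of FBtr0082475 went from 24500 at 4 h to 27500 at 36 h in gland and from 425 to 2600 in larva.

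In whole larvae from 4 to 36 h, 24 of the 62 transcripts (38.7%) were called higher and 4 (6.45%) lower, against 25.6% and 28.3% of all transcripts, or 53.9% either way. The other 198 gland-enriched transcripts had 16.7% higher and 29.3% lower. The median change was 0.35 in the 62, -0.2 in the 198 and -0.08 over all transcripts. Without both larval arrays that stood apart, 33 and 3 were called, beside 26.5% higher and 24.2% lower over all transcripts. With the nearly alike arrays averaged, 18 and 5 were called, beside 23.2% and 26.2%. The 62 transcripts themselves deviated by a median of -0.34 from their group mean on larval replicate 1 at 36 h, and by 0.18 and 0.16 on the other two.

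FBtr0082475 rose most in larva. Its larval intensities were 529.4, 379.9 and 366 at 4 h, 639.2, 553.3 and 573.2 at 8 h, 1637, 1428 and 1738 at 24 h. The arrays at 36 h read 1631, 3084 and 3091. The log2 change was 2.57 ± 0.18 (SE), with 2.88 when replicate 1 at 36 h was left out and 2.42 when replicate 2 was. In gland it lay between 22450 and 28330 on all 12 arrays. FBtr0114175 rose in larva from 260.7, 229.3 and 248.1 to 634.8, 1578 and 1538, by 2.23 ± 0.26, and its gland values were 10630, 13340 and 14520 at 4 h and 18780, 16500 and 14910 at 36 h.

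The largest larval falls were those of FBtr0084450 and FBtr0290057. FBtr0084450 read 81.78, 46.43 and 46.22 at 4 h and 26.27, 29.6 and 30.24 at 36 h, a log2 change of -0.97 ± 0.21, close to its change in gland. FBtr0290057 read 1534, 1490 and 1583 at 4 h and 686.5, 1049 and 1096 at 36 h, a change of -0.73 ± 0.15. Its gland intensities were 9946, 9661 and 9454 and then 9511, 10120 and 11090, which overlapped. FBtr0084479 (-0.43) and FBtr0113220 (-0.41), named after their values were seen, were also called lower in larva.

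Set side by side, 8 of the 62 transcripts (12.9%) were called higher with age in both tissues, beside 8.58% of all transcripts. Higher in gland alone were 10 (16.1%, beside 12%), higher in larva alone 15 (24.2%, beside 16.1%) and lower in larva alone 3 (4.84%, beside 16.6%). FBtr0084450 was lower in both, and FBtr0080734 was lower in gland and higher in larva. None was higher in gland and lower in larva, as 3.91% of all transcripts were, and 24 were called in neither tissue (38.7%, beside 29.3%). A call in one tissue alone does not show that the tissues differed, and that difference was not tested, since it is made of the values that chose the transcripts.

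**Figure D5:**
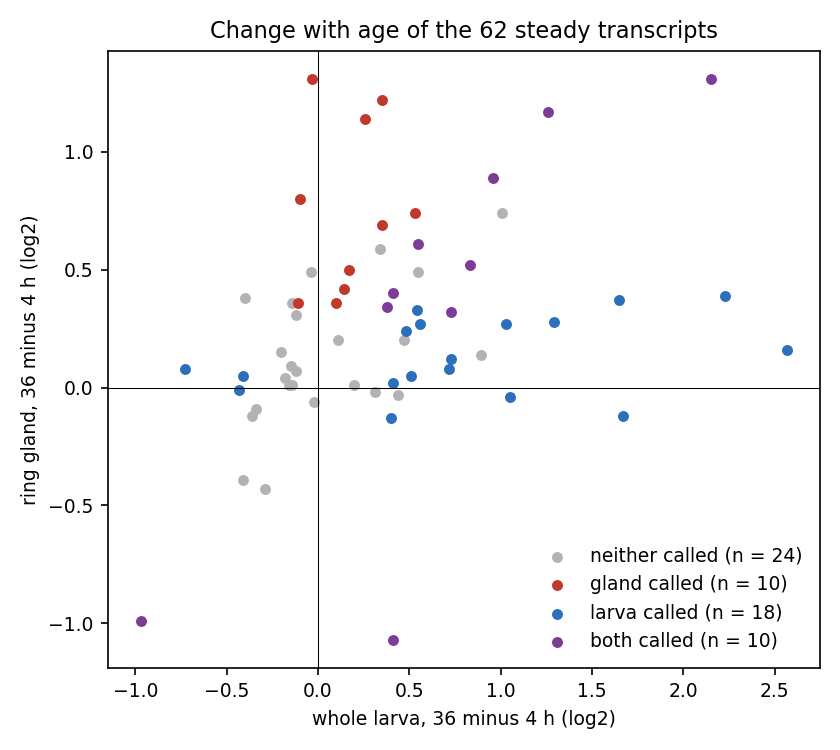
Log2 change from 4 to 36 h in whole larva (x axis) against ring gland (y axis); each of the 62 points is a transcript, coloured by which tissue's change was called. Most called points lie right of 0 or above 0, with the 2 gland falls, FBtr0080734 and FBtr0084450, at the bottom.

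Across all 7 comparisons, 7 of the 62 transcripts (11.3%) were called in none, beside 18% of all transcripts. In none of the 3 comparisons between 18 and 8 h within a genotype 24 were called (38.7%), beside 51.5%. Both backgrounds include dim transcripts, and the 62 held none. The 62 were not all separate measurements. Their identifiers included 6 pairs at most 2 apart in number, and within each pair the log2 values correlated with r between 0.99 and 0.998 over the 24 wild-type arrays and between 0.926 and 0.985 over the 18 driver-cross arrays. The files do not say whether these are transcripts of one gene or share probes. FBtr0078561 and FBtr0078563 were such a pair. Both were called lower at 8 h in torso-RNAi glands, by -0.46 and -0.49, and their torso-RNAi differences changed by nearly the same amount, -0.47 and -0.48, of which only the second was called (limma adjusted p = 0.073 and 0.045). With 1 transcript kept from each pair, 56 remained, and the larval rises were 39.3% and the RasV12 rises and falls 23.2% and 25%. The torso-RNAi rises and falls were 7.14% and 17.9%, and the RasV12 changes of difference 8.93% in each direction.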

How the data were processed

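The deposited values are intensities on a linear scale, which the authors made with RMA per the submitters' processing notes, with no version given. For probe annotation, background correction and slide, the sources used here give nothing. Array minima were 8.23 to 9.52 for wild type but 1.829 to 2.061 for the driver crosses. These were therefore treated as separate normalizations and never tested against each other. There were 16637 transcripts and 0 missing values.

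Intensities were taken to log2 without a pseudocount or filter, so all 62 transcripts were tested. The fits, separate for wild type and driver crosses, used limma 3.58.1 under R 4.3.3 (group means, eBayes), with Benjamini-Hochberg adjustment over 16637 transcripts in each of 7 comparisons, and checked on simulated data. Levels are means ± SD of 3 arrays, whose number limits the precision. Transcripts named are the 2 largest rises and falls per comparison among called ones without overlap, the highest gland minus larva difference, and those at the limits. For the changes of difference, overlap was judged on each array's value minus the control mean of its time. The members, comparisons and named-transcript rule were chosen with earlier results of these data known. Same-numbered replicates deviated together in few cases (r over 0.1 in 17 of 129 pairs), so the numbers were not taken as pairs. Gene lists and cell type markers, held ready, had 0 members with a name and were not used. Alternatives were another quantile normalization, centred arrays, a filter on dim transcripts (mean log2 under 6), other moderation, a fit on compared groups, a replicate block, leaving out arrays, a 2-fold minimum and other limits of the rule. Those on the larval arrays that stood apart or were nearly alike were chosen after seeing the data.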

Additional observations from a re-analysis of the deposited data

Results flagged for a closer look

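The RasV12 difference from control changed between 18 and 8 h, by the test of that change, in 5 transcripts upward and 5 downward. Each is 8.06% of the 62, beside 2.79% and 4.69% of all transcripts. With dim transcripts left out and the rest fitted again, the background was 5.81% and 9.99%, at another cut than the members' shares. The change was 2.28 for FBtr0080734 and 1.36 for FBtr0082648, and it was -1.4 for FBtr0089584 and -1.28 for FBtr0085071. The torso-RNAi difference changed in 2 transcripts, both downward, by -0.67 for FBtr0087681 and -0.48 for FBtr0078563. These are 3.23% of the 62, beside 1.66% of all transcripts called downward. All groups held 3 arrays, too few to test for a single outlying sample.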

How the results depend on the processing

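The choice of the 62 transcripts depended on scaling and on the limits. With arrays centred, 32 met the rule (31 of them among the 62). Before centring, the mean gland minus larva difference had a median of 0.27 over all transcripts. Limits of 1.5 and 2.5 for gland minus larva gave 158 and 27, a limit of 0.4 for T and R gave 39, and limits at each time separately gave 34. With 1 array left out the number lay between 59 and 65.

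Counts below are of members called higher, then lower, where they moved by over 1.5 times. Shares over all transcripts in the same setting stand in brackets. With arrays centred the counts were 9 and 4 (14.9% and 18.7%) for gland age, and 3 and 1 (1.51% and 1.53%) for the torso-RNAi change of difference. At a 2-fold minimum they were 5 and 1 (5.25% and 7.08%) for gland age and 9 and 0 (12.2% and 9.98%) for larval age. They were 0 and 0 for control (2.37% and 3.07%) and for torso-RNAi time (4.54% and 6.3%). RasV12 time had 2 and 3 (5.15% and 5.13%), as had the RasV12 change of difference (1.43% and 1.5%). The torso-RNAi change of difference had 0 lower (1.33%). Fitted on the compared groups alone, control time had 1 higher (8.09%), RasV12 time 7 lower (12.9%) and torso-RNAi time 5 lower (7.41%). The torso-RNAi change then had 1 lower (1.38%) and the RasV12 change 2 higher (2.55%). Without dim transcripts, torso-RNAi time had 7 higher (20.1%) and the torso-RNAi change 3 and 4 (2.31% and 2.08%). Trend and robust moderation gave 3 and 4 (1.53% and 1.77%) for the latter and 8 higher (3.79%) for the RasV12 change. A second quantile normalization gave 1 higher (1.52%) for the torso-RNAi change. With replicate as a block, the torso-RNAi change had 1 higher (1.25%) in place of 0 and FBtr0087681 lost its call (limma adjusted p = 0.056). No other count moved by over 1.5 times with that block. Without both larval arrays that stood apart, 4 were lower with gland age (14.3%).

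With 1 array left out, gland age gave 10 to 15 higher and 2 lower, larval age 17 to 30 and 3 to 6, control time 0 to 1 and 2 to 6, RasV12 time 9 to 16 and 9 to 13, torso-RNAi time 3 to 5 and 8 to 17, the torso-RNAi change 0 to 1 and 0 to 6, and the RasV12 change 2 to 5 and 3 to 5. Over all transcripts the shares, higher then lower, were 17.2 to 23.9% and 11.2 to 12.9% for gland age. Larval age had 23.1 to 26.1% and 23.9 to 26.5%, and control time 3.83 to 6.5% and 3.54 to 5.34%. RasV12 time had 12.4 to 16.1% and 14.1 to 16.3%, and torso-RNAi time 9.45 to 13.8% and 9.83 to 13.8%. The torso-RNAi change had 0.751 to 1.63% and 0.938 to 2.26%, and the RasV12 change 1.55 to 3.8% and 2.6 to 4.85%. The 2 largest called rises and falls of each comparison, the only single transcripts followed through the alternatives, kept their direction in all of them. The cause of these shifts was not tested.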
